A study of Mus musculus with 29 samples.

Results

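Male C57BL/6N mice, 8 to 10 weeks old by the study's design and kept on standard diet, had the extrahepatic common bile duct ligated (bile duct ligation, BDL) or a sham operation, and livers were taken 1 day later. The comparison described here is that of the 5 arrays labelled BDL at day 1 with the 3 arrays labelled sham at day 1, 8 of the 29 arrays of the series, which also holds livers from days 3, 7 and 21. Samples were chosen by their treatment and time labels alone. Each array carries the RNA of liver tissue of an animal with its own number, so that replicates are separate animals. The titles mark the animals of all groups wt, the usual short form of wild type, the labels give no transgene or drug, and no liver without surgery is among the samples used here. Both groups therefore share the operation and a single day of recovery.

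Ligation of the common bile duct stops bile from reaching the gut, and bile acids and other bile constituents build up in liver and blood. In hepatocytes bile acids activate the nuclear receptor FXR (Nr1h4), which lowers the enzymes that make bile acids from cholesterol, favours export into bile and restrains uptake from blood. Bile acids reach bile across the canalicular membrane, and under obstruction export at the basolateral side, back to blood, is known to gain weight. Obstruction is also known to injure hepatocytes and to bring neutrophils and monocytes into the liver, while growth of bile ducts and scar form later.

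Values are deposited log2 expression values (RMA, a method that corrects background, brings arrays to a shared distribution and summarises probes). A difference of 1 on this scale is a factor of 2. Testing with limma covered 14699 of 22180 named genes, those above 5 in 3 or more of the 29 arrays. A gene is called higher, lower or changed where its two-sided adjusted p (Benjamini-Hochberg over all genes tested) was under 0.05. Each log2 fold change is BDL minus sham, given as the difference ± its standard error, and values in individual livers follow the order of replicates 1 to 5 for BDL and 1 to 3 for sham. A group mean under 5 was not told apart from background, and the size of such a change gives no rank. Arrays have no sequencing depth; their number limits the precision, and the median standard error of a log2 fold change was 0.151.

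The labelled tissue matched its markers, since the 11 hepatocyte marker genes averaged 12.77 to 12.90 in BDL livers and 12.81 to 12.97 in sham livers. Across genes, pairs of BDL arrays correlated at 0.956 to 0.985, pairs of sham arrays at 0.956 to 0.973, and BDL with sham arrays at 0.930 to 0.966. Both groups were split by a technical property: BDL replicates 2 and 3 and sham replicates 1 and 3 had an SD of log2 values of 1.55 to 1.58, against 1.64 to 1.70 in the other 25 arrays of the series. In these 4 arrays of low spread the 72 tested small nucleolar RNA genes averaged 8.97 to 9.43, against 7.69 to 8.48 in the others. What separates the 4 arrays is not given in the labels. Tested as a term of the model, membership of this set passed for 3734 genes, of which 1075 had higher and 2659 had lower values there. Sham replicate 2 is then the only sham array outside the set.

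At day 1, 1958 of 14699 genes were called (13.3%), 1252 higher in BDL livers (8.52%) and 706 lower (4.8%). With the 4 low-spread arrays as a block term the count was 2184 (14.9%), 1207 of them higher (8.21%) and 977 lower (6.65%), and 1762 genes were called in the same direction in both fits. With cyclic loess scaling of the arrays, 52.6% of the calls were higher, compared with 63.9% in the deposited scaling, so the balance between rises and falls depends on the scaling. Called changes of at least 2-fold numbered 199 rises (1.35%) and 142 falls (0.966%). All 5 BDL arrays lay above all 3 sham arrays in 7.7% of the genes tested and below them in 5.53%, and 1389 called genes had no overlap between the groups. Over all genes tested the median log2 fold change was 0.02. The 4 low-spread arrays of day 1 alone gave 1290 calls (8.78%), 4.91% of all genes higher and 3.86% lower. Without them 597 were called (4.06%), 1.99% higher and 2.07% lower, in a fit that keeps a single sham liver. Without sham replicate 1 the count was 1268 and without sham replicate 3 it was 1299, while 2750 genes were called without sham replicate 2.

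**Figure D1:**
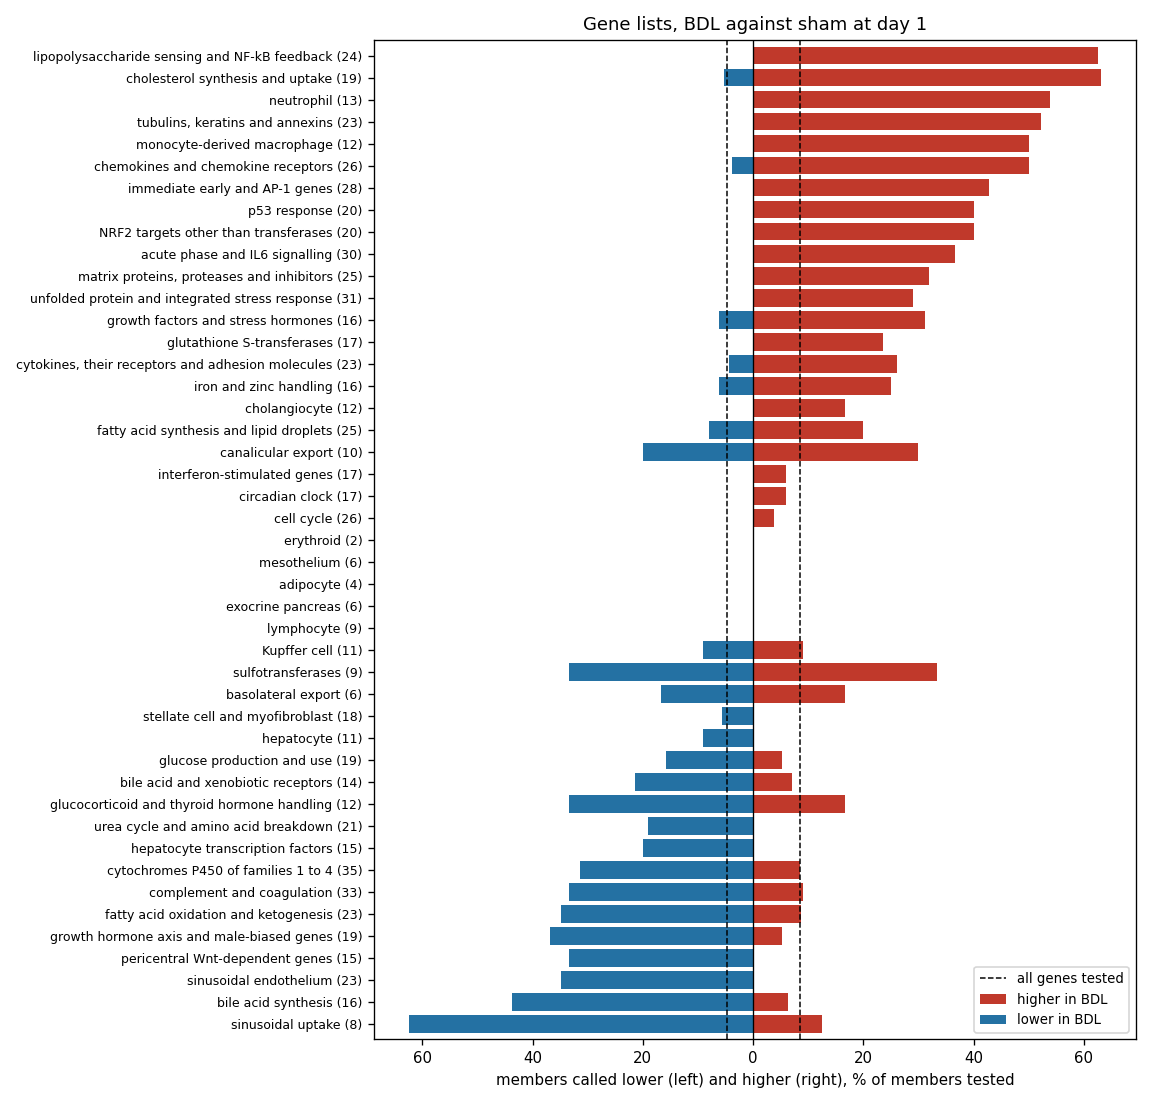
Share of the tested members of each gene list called higher (right, red) or lower (left, blue) in BDL than in sham livers at day 1, in percent of the members tested, whose number stands in parentheses. Dashed lines mark the shares over all genes tested, 8.52% higher and 4.8% lower; cholesterol synthesis and NF-kB feedback genes reach furthest to the right, and sinusoidal uptake furthest to the left.

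Of 16 tested genes of bile acid synthesis 7 fell in BDL livers, and the key enzymes of the classical pathway fell to the background level or close to it. They were Cyp7a1, the cholesterol 7-alpha-hydroxylase that limits the rate of that pathway, and Cyp8b1, the sterol 12-alpha-hydroxylase that directs synthesis to cholic acid. Cyp7a1 was 5.78, 4.23, 3.21, 3.76 and 4.47 in BDL livers, against 11.16, 9.32 and 9.34 in sham livers (log2 fold change -5.65 ± 0.86, adjusted p = 4.5e-05). Cyp8b1 was 5.02, 5.75, 4.79, 5.12 and 5.13 in BDL livers, against 10.48, 9.89 and 10.31 in sham livers (log2 fold change -5.07 ± 0.42, adjusted p = 3.42e-09). For both genes every BDL liver lay more than 3 log2 units below the lowest sham liver. The BDL mean of Cyp7a1 was under 5, so that fall depends on the background level. Without the 4 low-spread arrays, a fit that keeps a single sham liver, the fall of Cyp7a1 did not pass (log2 fold change -4.65, adjusted p = 0.0653). Less RNA per cell and fewer cells of a type cannot be told apart in whole liver, here and for the results that follow.

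Cyp7b1, the oxysterol 7-alpha-hydroxylase of the alternative pathway, fell by a smaller step and was 8.54, 8.56, 7.99, 8.23 and 8.996 in BDL livers, against 10.13, 11.48 and 10.76 in sham livers (log2 fold change -2.33 ± 0.29, adjusted p = 2.27e-06), with no overlap. Beside the 7 falls 1 gene of the list was higher (3 without sham replicate 2), and the list median was -0.41. The shares that fell and rose were 43.75% and 6.25%, compared with 4.8% and 8.52% of all genes. The falls included Slc27a5, the ligase that activates bile acids for conjugation (log2 fold change -0.78 ± 0.15, adjusted p = 0.000531), Scp2, the sterol carrier and thiolase of side-chain shortening (-0.52, adjusted p = 0.00111), and Hsd3b7, the steroid dehydrogenase that follows the 7-alpha-hydroxylases (-0.70, adjusted p = 0.0164). Acox2, the peroxisomal oxidase of bile acid side chains, was the member that rose (0.44, adjusted p = 0.0229). Its call rested on single arrays, with an adjusted p of 0.0517 to 0.0936 without BDL replicate 1 or 5 or sham replicate 1 or 3, and that of Hsd3b7 did too (0.0806 without sham replicate 3).

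Among receptors, Nr1h4, which encodes FXR itself, was 8.46, 8.74, 8.79, 8.43 and 8.77 in BDL livers, against 9.53, 9.60 and 9.78 in sham livers (log2 fold change -1.0002 ± 0.13, adjusted p = 4.6e-06), so every BDL liver lay below every sham liver. Nr0b2, which encodes the FXR-induced repressor SHP, was 9.97, 10.04, 9.71, 10.27 and 10.46 in BDL livers, against 8.55, 9.71 and 8.997 in sham livers, and did not pass (log2 fold change 1.002 ± 0.38, adjusted p = 0.078). Here 4 BDL livers lay above all sham livers, while BDL replicate 3 and sham replicate 2 shared a level, and without that sham liver the adjusted p was 0.0294. Klb, the co-receptor of the intestinal hormone FGF15, fell (log2 fold change -0.83 ± 0.24, adjusted p = 0.0188), and so did Rxra, the partner of FXR (-0.34, adjusted p = 0.0332). Nr1i2, which encodes the xenobiotic receptor PXR, rose (log2 fold change 0.89 ± 0.15, adjusted p = 0.000183). Of 14 receptor genes 3 were lower (1 without sham replicate 1 or 2) and 1 was higher (2 without sham replicate 2), around a median of -0.08. These shares were 21.4% and 7.14%, compared with 4.8% and 8.52% of all genes. With 1 array left out, the adjusted p of Klb was 0.0561 without sham replicate 1 and 0.11 without sham replicate 2, and that of Rxra was 0.0522 to 0.0794 without BDL replicate 3 or 4 or sham replicate 1, 2 or 3.

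Most carriers of the sinusoidal uptake list fell, with 5 of 8 tested members lower and 1, which is an apical carrier, higher (median -0.95). Slc10a1, the sodium-dependent bile acid carrier NTCP, was 11.07, 10.59, 9.86, 10.18 and 10.996 in BDL livers, against 11.54, 11.93 and 11.39 in sham livers (log2 fold change -1.08 ± 0.24, adjusted p = 0.00228). The groups did not overlap, although BDL replicates 1 and 5 came within 1 log2 unit of the sham livers. Slco1a1 and Slco1b2, organic anion carriers that take up bile acids without sodium, fell by 2.14 and 0.81 on the log2 scale (adjusted p = 0.000199 and 0.00289). Slc22a7, an organic anion transporter, was 5.81 to 6.30 in BDL livers, against 8.08 to 8.34 in sham livers (log2 fold change -2.14 ± 0.31, adjusted p = 2.17e-05), and the related Slc22a30 fell to a BDL mean under 5 (adjusted p = 0.00105). The member that rose was Slc10a2, the apical bile acid carrier of ileum and bile duct cells, at 8.20 to 8.93 in BDL livers, against 6.95 to 7.63 in sham livers (log2 fold change 1.36 ± 0.23, adjusted p = 0.000145).

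Export to bile split by carrier. Abcb1a, a multidrug exporter of the P-glycoprotein family, was 8.68, 8.42, 8.07, 8.47 and 9.09 in BDL livers, against 5.44, 6.09 and 5.33 in sham livers (log2 fold change 2.93 ± 0.25, adjusted p = 4.4e-09). Abcb4, the phospholipid floppase that protects bile ducts from free bile acids, was 11.32, 11.84, 11.62, 11.64 and 11.74 in BDL livers, against 10.29, 10.77 and 9.73 in sham livers (log2 fold change 1.37 ± 0.19, adjusted p = 9.93e-06). In both genes every ligated liver lay above every sham liver. Abcb11, the bile salt export pump and an FXR target, was 12.24, 12.08, 11.71, 12.14 and 12.24 in BDL livers, against 11.23, 12.04 and 11.26 in sham livers, and did not pass (log2 fold change 0.57 ± 0.23, adjusted p = 0.108). Sham replicate 2 reached the level of the BDL livers for this gene, and without it the adjusted p was 0.0195. Atp8b1, the aminophospholipid flippase of the canaliculus, rose (log2 fold change 0.81 ± 0.25, adjusted p = 0.027) with overlap, and its adjusted p was 0.058 to 0.34 without BDL replicate 1, 4 or 5 or sham replicate 1 or 3.

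Of the 10 canalicular genes 3 rose and 2 fell (median 0.28). The falls were Slc47a1, an exporter of organic cations (log2 fold change -1.41 ± 0.23, adjusted p = 0.000109), and Abcc2, the conjugate exporter MRP2 (log2 fold change -0.34 ± 0.11, adjusted p = 0.0365). The change of Abcc2 was small, and its adjusted p was 0.0549 to 0.155 without BDL replicate 3, 4 or 5 or sham replicate 1 or 2. At the basolateral membrane Abcc4, the bile acid overflow exporter MRP4, was 5.75, 5.24, 5.19, 5.13 and 5.40 in BDL livers, against 5.02, 5.45 and 5.07 in sham livers, with overlapping groups and no call (log2 fold change 0.16 ± 0.16, adjusted p = 0.579). Abcc3, the exporter MRP3, rose (log2 fold change 0.50 ± 0.14, adjusted p = 0.0167), a call that was lost with 1 array left out (adjusted p = 0.169 without sham replicate 3). Abcc6 fell (log2 fold change -1.01 ± 0.16, adjusted p = 9.97e-05), so that of 6 basolateral genes 1 was higher and 1 lower.

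**Figure D2:**
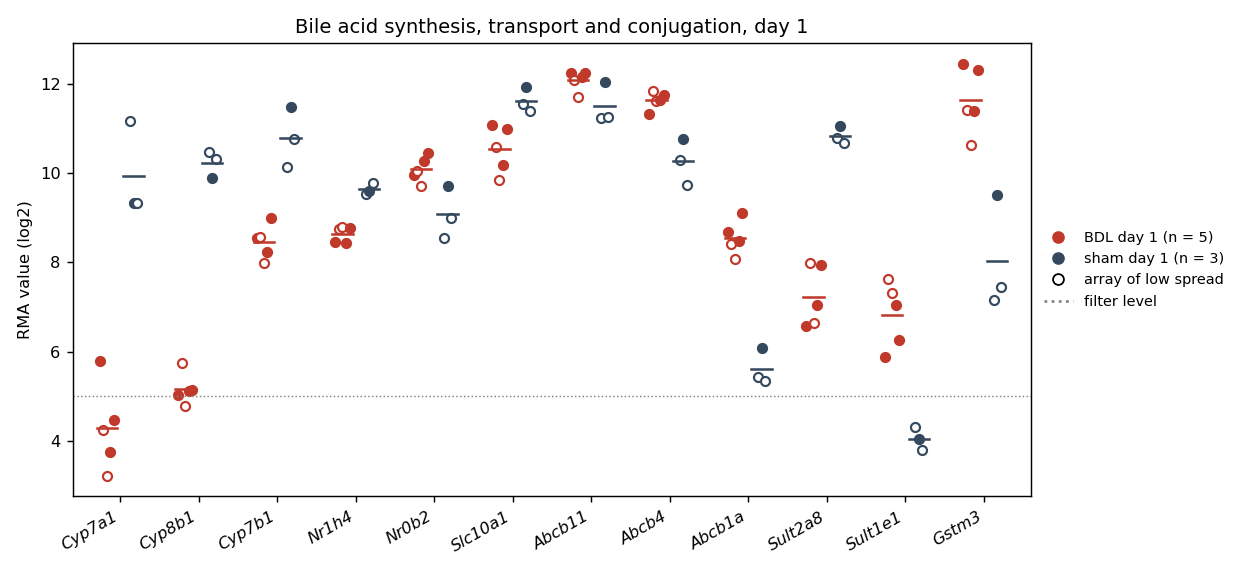
Log2 RMA values of 12 genes of bile acid synthesis, control, transport and conjugation in each BDL (red, left of each pair, n = 5) and sham (dark blue, right, n = 3) liver at day 1; bars are group means, open symbols are the 4 arrays of low spread and the dotted line is the filter level of 5. In BDL livers Cyp7a1 lies mostly below the filter level and Cyp8b1 near it, and both lie above 9 in sham livers, whereas Abcb11 and Nr0b2 overlap.

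Conjugating enzymes moved in both directions within families. Sult1e1, the oestrogen sulfotransferase, was 5.88, 7.62, 7.32, 7.05 and 6.25 in BDL livers, against 4.30, 4.03 and 3.79 in sham livers (log2 fold change 2.78 ± 0.49, adjusted p = 0.000251), with all sham values below the filter level. Sult2a8, the bile acid sulfotransferase of mouse liver, went the other way, at 6.58, 7.97, 6.64, 7.03 and 7.94 in BDL livers, against 10.78, 11.05 and 10.66 in sham livers (log2 fold change -3.60 ± 0.27, adjusted p = 1.36e-09). Neither gene overlapped between the groups. Sult1a1, a phenol sulfotransferase, rose (0.99, adjusted p = 0.000691) and Sult5a1 fell (-1.15, adjusted p = 0.00176). Of 9 genes in the sulfation list 3 rose and 3 fell. Sult1c2 was the third to fall, at low levels (-0.66, adjusted p = 0.0437, and 0.0757 with the block), with an adjusted p of 0.0503 to 0.198 without BDL replicate 1, 2, 4 or 5 or sham replicate 1 or 3. Papss1, which makes the sulfate donor, was the third to rise (0.59, adjusted p = 0.0224); its adjusted p was 0.0547 to 0.286 without BDL replicate 4 or 5 or sham replicate 1. Near-identical copies within the Sult, Gst, Cyp, Ces, Mup and Serpina families make the assignment of their values uncertain.

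Among called genes with both group means at 5 or above, Gstm3, a glutathione S-transferase, had the largest rise. It was 12.45, 11.41, 10.63, 11.39 and 12.31 in BDL livers, against 7.16, 9.50 and 7.44 in sham livers (log2 fold change 3.61 ± 0.50, adjusted p = 1.04e-05), and the lowest BDL liver lay above the highest sham liver. Gsta4 (log2 fold change 1.55 ± 0.27, adjusted p = 0.000186) and Gstm2 (log2 fold change 1.48 ± 0.20, adjusted p = 1.04e-05) rose as well. Gstm1 was the other of 4 risers among 17 transferases, whose median was 0.02; its call (0.72, adjusted p = 0.0119) was lost with 1 array left out (adjusted p = 0.0826 without sham replicate 3). None of the transferases fell, but 1 was called lower without BDL replicate 5 and 3 with the block. Among targets of NRF2, the transcription factor of the oxidant response, other than transferases, 8 of 20 rose (5 without sham replicate 3) and none fell (median 0.31). Hmox1, the haem oxygenase that also answers to other stresses, was 8.98, 8.72, 8.13, 8.97 and 9.36 in BDL livers, against 7.11, 7.34 and 6.75 in sham livers (log2 fold change 1.77 ± 0.20, adjusted p = 5.7e-07). Srxn1, which repairs peroxiredoxins, Gsr, the glutathione reductase, and Pgd of the pentose phosphate pathway rose by 1.20, 0.94 and 1.11 (adjusted p = 7.19e-08, 2.44e-06 and 0.000817). Nqo1, the quinone reductase, was 6.86, 6.57, 6.16, 6.50 and 6.81 in BDL livers, against 6.03, 6.03 and 5.51 in sham livers (log2 fold change 0.72 ± 0.19, adjusted p = 0.0102), a narrow separation that did not pass with 1 array left out (adjusted p = 0.11 without sham replicate 3).

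Cytochromes P450 of families 1 to 4 fell more often than they rose, with 11 of 35 lower and 3 higher (median -0.49). The share that fell was 31.4%, compared with 4.8% of all genes. The share that rose was 8.57%, near the 8.52% of all genes. Cyp2c54 was 6.76 to 8.15 in BDL livers, against 10.63 to 10.82 in sham livers (log2 fold change -3.21 ± 0.42, adjusted p = 4.88e-06), and Cyp2c50 and Cyp2c37 of the same family fell by 2.54 and 2.04 on the log2 scale (adjusted p = 4.8e-06 and 3.6e-07). Cyp4f14, a fatty acid hydroxylase, fell (log2 fold change -2.54 ± 0.40, adjusted p = 5.96e-05). Outside this list Cyp2d13 was among the 20 largest falls (log2 fold change -2.39 ± 0.32, adjusted p = 5.81e-06). Cyp3a11, the main PXR target among drug-metabolising enzymes, rose and was 12.15, 12.29, 11.84, 12.19 and 12.26 in BDL livers, against 11.03, 11.73 and 10.86 in sham livers (log2 fold change 0.94 ± 0.19, adjusted p = 0.00132). Cyp2b10, a target of the receptor CAR, was 7.17, 6.73, 5.01, 5.52 and 4.12 in BDL livers, against 4.52, 4.63 and 4.17 in sham livers, and did not pass (log2 fold change 1.27 ± 0.70, adjusted p = 0.263). Its BDL values spanned 3 log2 units, with replicates 1 and 2 high and replicate 5 at the sham level.

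Cholesterol synthesis rose, with 12 of 19 tested genes higher and 1 lower and a median of 0.88. The shares were 63.2% and 5.26%, compared with 8.52% and 4.8% of all genes. Lss, lanosterol synthase, was 10.01, 9.53, 9.80, 10.51 and 10.23 in BDL livers, against 7.29, 8.09 and 8.81 in sham livers (log2 fold change 1.95 ± 0.33, adjusted p = 0.000187). Sqle, squalene epoxidase, was 10.58, 9.97, 10.10, 10.68 and 10.75 in BDL livers, against 8.01, 9.01 and 9.23 in sham livers (log2 fold change 1.67 ± 0.35, adjusted p = 0.00144). In neither gene did the groups overlap, and sham replicate 1 was the lowest array for both. Mvd (log2 fold change 1.49 ± 0.34, adjusted p = 0.00327) and Pmvk (log2 fold change 1.48 ± 0.26, adjusted p = 0.00022) of the mevalonate steps rose, as did Hmgcs1, which makes the substrate of the rate-limiting step (log2 fold change 1.28 ± 0.32, adjusted p = 0.00785, but 0.103 without sham replicate 1). Ebp, a sterol isomerase, was the member that fell (log2 fold change -0.55 ± 0.13, adjusted p = 0.006). Within the 4 low-spread arrays 3 members were called higher, compared with 7 in the other 4 day 1 arrays, which hold a single sham liver. With 1 array left out between 6 and 13 were called higher, fewest without sham replicate 1.

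Genes of lipid synthesis and their regulators moved in both directions. Fasn, fatty acid synthase, was 11.48, 10.84, 10.82, 11.45 and 11.45 in BDL livers, against 9.34, 9.92 and 10.38 in sham livers (log2 fold change 1.33 ± 0.28, adjusted p = 0.00183), and Cidec, a lipid droplet protein, rose (log2 fold change 1.62 ± 0.43, adjusted p = 0.0103). Mlxipl, which encodes the glucose-sensing factor ChREBP, fell (log2 fold change -1.39 ± 0.27, adjusted p = 0.000773). Srebf1, which encodes the lipogenic factor SREBP1, fell with overlap (log2 fold change -1.06 ± 0.32, adjusted p = 0.0229), a call that was lost with 1 array left out (adjusted p = 0.187 without sham replicate 3). Of 25 genes of fatty acid synthesis and lipid droplets 5 rose (3 without sham replicate 1) and 2 fell (median 0.05). These shares were 20% and 8%, compared with 8.52% and 4.8% of all genes. Mfsd2a, a transporter of lysophospholipids with fatty acids, was among the 20 largest rises (log2 fold change 2.30 ± 0.58, adjusted p = 0.00794) but had an adjusted p of 0.0688 without sham replicate 3.

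Among 23 genes of fatty acid oxidation 8 were lower (5 without sham replicate 2 or 3) and 2 higher (median -0.41). The shares of fatty acid oxidation genes were 34.8% lower and 8.7% higher, compared with 4.8% and 8.52% of all genes. Ppara, the receptor that drives this programme, was 7.68 to 8.01 in BDL livers, against 8.72 to 9.01 in sham livers (log2 fold change -1.06 ± 0.16, adjusted p = 3.26e-05). Acaa1b, a peroxisomal thiolase, fell (log2 fold change -1.34 ± 0.32, adjusted p = 0.005), and Acaa2, a mitochondrial thiolase, fell by 0.56 on the log2 scale (adjusted p = 0.000142). Fgf21, a stress hormone that PPARA induces in fasting, rose and was 5.69, 6.13, 6.62, 7.07 and 6.54 in BDL livers, against 5.36, 5.59 and 5.21 in sham livers (log2 fold change 1.02 ± 0.20, adjusted p = 0.000971). Pdk4, which diverts pyruvate from oxidation, was the other riser (0.93, adjusted p = 0.0214), with an adjusted p of 0.0552 to 0.111 without BDL replicate 4 or sham replicate 1 or 2.

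In glucose metabolism G6pc, the catalytic subunit that releases glucose from hepatocytes, fell and was 9.62, 7.12, 6.42, 5.82 and 7.85 in BDL livers, against 9.76, 11.16 and 10.85 in sham livers (log2 fold change -3.23 ± 0.64, adjusted p = 0.000982). BDL replicate 1 was close to the lowest sham liver, and the other 4 BDL livers were far below. Fbp1, fructose bisphosphatase, fell with little scatter (log2 fold change -1.35 ± 0.19, adjusted p = 9.93e-06). Pck1, the enzyme at the entry of gluconeogenesis, was 13.12, 13.02, 12.95, 12.88 and 12.84 in BDL livers, against 13.05, 13.05 and 12.83 in sham livers, with no call (log2 fold change -0.02 ± 0.21, adjusted p = 0.974). Pkm, the pyruvate kinase of cells other than hepatocytes, rose (log2 fold change 0.80 ± 0.19, adjusted p = 0.00534), and Gys2, liver glycogen synthase, fell (log2 fold change -1.03 ± 0.26, adjusted p = 0.00668). Of 19 glucose genes 3 were lower (5 with the block) and 1 was higher (2 without BDL replicate 3), with a median of -0.01. The shares were 15.8% and 5.26%, compared with 4.8% and 8.52% of all genes.

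Of 21 urea cycle and amino acid genes 4 were lower (8 without BDL replicate 1 and 7 without BDL replicate 2) and none higher (1 without BDL replicate 2 or 3 or sham replicate 2; median -0.37). Cps1, the entry enzyme of the urea cycle, was 13.04, 12.92, 12.50, 12.49 and 12.73 in BDL livers, against 12.88, 13.06 and 12.60 in sham livers, with no call (log2 fold change -0.11 ± 0.12, adjusted p = 0.621). Prodh2, hydroxyproline dehydrogenase, fell most (log2 fold change -1.73 ± 0.28, adjusted p = 9.14e-05). Hpd of tyrosine breakdown fell by 0.60 on the log2 scale (adjusted p = 0.00416).

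Growth hormone-dependent and male-biased genes fell in 7 of 19 cases. Among called genes with both group means at 5 or above, the largest fall was that of Car3, carbonic anhydrase 3, an abundant protein of male rodent liver. Car3 was 7.10, 6.21, 5.88, 6.30 and 7.42 in BDL livers, against 12.26, 12.36 and 11.60 in sham livers (log2 fold change -5.49 ± 0.71, adjusted p = 4.88e-06). Hsd3b5, a male-biased steroid dehydrogenase, fell to a BDL mean under 5 and was 3.04 to 3.65 in BDL livers, against 7.40 to 9.54 in sham livers (adjusted p = 6.15e-09). Both genes separated the groups by wide gaps. Moxd1 (log2 fold change -3.36 ± 0.83, adjusted p = 0.00629, but 0.0526 without sham replicate 1) and Nudt7, a peroxisomal hydrolase (log2 fold change -2.05 ± 0.33, adjusted p = 9.68e-05), fell as well. Ghr, the growth hormone receptor, was 7.55 to 8.24 in BDL livers, against 9.07 to 9.76 in sham livers (log2 fold change -1.41 ± 0.19, adjusted p = 1.04e-05), and Igfals, which carries IGF1 in blood, fell (log2 fold change -1.64 ± 0.28, adjusted p = 0.000198). Igf1, the growth hormone-driven factor itself, was 10.63, 10.05, 10.15, 10.40 and 10.53 in BDL livers, against 10.31, 10.82 and 10.81 in sham livers, and did not pass (log2 fold change -0.29 ± 0.14, adjusted p = 0.185; 0.0347 with the block, which is under the threshold). Igfbp1, a binding protein that blocks IGF1, rose (log2 fold change 1.76 ± 0.41, adjusted p = 0.00409), but its adjusted p was 0.0826 without sham replicate 1. Of 19 genes of the growth hormone axis and male-biased expression 7 fell (4 without sham replicate 1) and 1 rose (median -0.29). These shares were 36.8% and 5.26%, compared with 4.8% and 8.52% of all genes.

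Serpina6, which encodes corticosteroid-binding globulin, was 8.08, 7.24, 6.04, 6.46 and 7.69 in BDL livers, against 10.94, 11.44 and 10.72 in sham livers (log2 fold change -3.93 ± 0.60, adjusted p = 5.03e-05). Every ligated liver lay more than 2 log2 units below every sham liver. Dio1, the deiodinase that activates thyroid hormone, fell (log2 fold change -1.82 ± 0.35, adjusted p = 0.000711), while the glucocorticoid-induced gene Zbtb16 rose (log2 fold change 1.40 ± 0.39, adjusted p = 0.0139) but had an adjusted p of 0.085 without sham replicate 1 and 0.0664 without sham replicate 3. Of 12 genes of glucocorticoid and thyroid hormone handling 4 fell (2 without sham replicate 2) and 2 rose (none without sham replicate 1 or 3, and 1 without BDL replicate 1, 2, 3 or 4 or sham replicate 2; median -0.17).

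Pericentral genes that depend on Wnt signals fell in part, with 5 of 15 lower and none higher (1 without sham replicate 2; median -0.39). Glul, the glutamine synthetase of the hepatocytes next to the central vein, was 9.75, 9.77, 8.98, 8.65 and 10.70 in BDL livers, against 11.32, 11.37 and 11.30 in sham livers (log2 fold change -1.76 ± 0.31, adjusted p = 0.000269). Rgn (log2 fold change -1.53 ± 0.31, adjusted p = 0.00102) and Gulo, an enzyme of vitamin C synthesis (log2 fold change -1.29 ± 0.23, adjusted p = 0.000329), fell too. Without the 4 low-spread arrays none of the 15 was called, Glul, Rgn and Gulo had log2 fold changes of -1.67, -1.57 and -1.004, and the list median was -0.38. Among 15 hepatocyte transcription factors 3 fell and none rose (1 without sham replicate 1): Cebpa (log2 fold change -1.17 ± 0.14, adjusted p = 1.68e-06), Ppara and Nr1h4. Per1, a clock gene also induced by glucocorticoids, was 8.64, 8.61, 8.64, 8.79 and 8.60 in BDL livers, against 8.69, 8.38 and 6.55 in sham livers, and did not pass (log2 fold change 0.79 ± 0.51, adjusted p = 0.352). Sham replicate 3 was low for Per1, and the other 7 livers lay within a narrow range. Of 17 clock genes 1 rose (5.88%, compared with 8.52% of all genes) and none fell. With 1 array left out no clock gene rose without BDL replicate 1 or sham replicate 1 or 3, and 1 fell without BDL replicate 2, 4 or 5 and 3 without sham replicate 3. With the block 1 rose and 1 fell.

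Several of the 20 largest falls belong to none of the lists. Inmt, a methyltransferase of indole amines (log2 fold change -3.68 ± 0.57, adjusted p = 4.99e-05), Upp2, a uridine phosphorylase (log2 fold change -2.92 ± 0.58, adjusted p = 0.000977), and Ces1f, a carboxylesterase (log2 fold change -2.87 ± 0.68, adjusted p = 0.00452), each had all BDL livers below all sham livers. Keg1 (log2 fold change -2.54 ± 0.54, adjusted p = 0.00188), Slc22a28 (log2 fold change -2.38 ± 0.43, adjusted p = 0.000318) and the microRNA gene Mir1948 (log2 fold change -2.79 ± 0.40, adjusted p = 2.15e-05) did so too. Mup-ps12, a pseudogene of the major urinary proteins, fell to a BDL mean under 5 (adjusted p = 0.000255). Alb, the albumin gene, was 14.10, 14.05, 14.02, 14.10 and 14.12 in BDL livers, against 13.98, 14.13 and 13.98 in sham livers, near the top of the scale and with no call (log2 fold change 0.05 ± 0.07, adjusted p = 0.746).

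Secreted defence and clotting proteins moved mostly downward. Of 33 genes of complement and coagulation 11 were lower (5 without sham replicate 2) and 3 higher (median -0.23). These shares were 33.3% and 9.09%, compared with 4.8% and 8.52% of all genes. C8b (log2 fold change -0.72 ± 0.14, adjusted p = 0.000518) and C9 (log2 fold change -0.79 ± 0.17, adjusted p = 0.00237) of the membrane attack complex and F13b, a subunit of the fibrin-stabilising factor (log2 fold change -0.85 ± 0.13, adjusted p = 2.77e-05), fell without overlap. F11, clotting factor XI, rose without overlap (log2 fold change 0.95 ± 0.15, adjusted p = 6.55e-05). Thbd, thrombomodulin, the anticoagulant receptor of endothelium, rose (log2 fold change 0.95 ± 0.19, adjusted p = 0.00109).

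Innate immune sensing rose, with 15 of 24 genes of lipopolysaccharide sensing and NF-kB feedback higher and none lower (median 0.67). NF-kB is the transcription factor that such sensing activates, and several of its targets are its own inhibitors. Cd14, the co-receptor that hands lipopolysaccharide to TLR4, was 9.03, 7.71, 8.14, 9.18 and 10.06 in BDL livers, against 5.95, 5.85 and 5.24 in sham livers (log2 fold change 3.14 ± 0.33, adjusted p = 1.81e-07). Tnfaip3, which encodes the inhibitor A20, was 7.66, 7.87, 7.87, 8.15 and 8.44 in BDL livers, against 6.01, 6.28 and 6.04 in sham livers (log2 fold change 1.89 ± 0.17, adjusted p = 1.16e-08). Nfkbia, which encodes the inhibitor IkB-alpha, was 9.84, 10.002, 9.74, 10.09 and 9.85 in BDL livers, against 9.03, 8.64 and 8.58 in sham livers (log2 fold change 1.15 ± 0.15, adjusted p = 5.68e-06). In all 3 genes every ligated liver lay above every sham liver, by more than 1 log2 unit for Cd14 and Tnfaip3. Tlr2, the lipoprotein sensor (log2 fold change 1.50 ± 0.24, adjusted p = 9.64e-05), Irak3, an inhibitor of receptor signals (log2 fold change 1.48 ± 0.30, adjusted p = 0.00122), and Nfkb2, an NF-kB subunit (log2 fold change 1.13 ± 0.16, adjusted p = 1.77e-05), rose too. Counts were 12 within the 4 low-spread arrays, 8 without them and 15 with the block.

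Chemokines rose beside them, 13 of 26 genes higher and 1 lower (median 0.48). The shares were 50% and 3.85%, compared with 8.52% and 4.8% of all genes. Ccl2, which attracts monocytes, was 8.14, 7.74, 7.29, 8.91 and 9.14 in BDL livers, against 5.28, 5.47 and 5.42 in sham livers (log2 fold change 2.85 ± 0.29, adjusted p = 7.75e-08). Cxcl1, which attracts neutrophils, was 9.80, 10.11, 10.54, 9.96 and 9.73 in BDL livers, against 7.11, 7.74 and 9.86 in sham livers (log2 fold change 1.79 ± 0.36, adjusted p = 0.0011). The Ccl2 groups were far apart, whereas sham replicate 3 had as much Cxcl1 as the BDL livers. Cxcl10, which attracts T cells, was 6.44 to 8.66 in BDL livers, against 5.04 to 5.51 in sham livers (log2 fold change 2.40 ± 0.41, adjusted p = 0.000183), and Ccl6 (log2 fold change 1.66 ± 0.27, adjusted p = 9.99e-05) and Cxcl14 (log2 fold change 1.74 ± 0.37, adjusted p = 0.00199) rose. Cxcl12, which stromal and endothelial cells make to retain leukocytes, was the member that fell (log2 fold change -0.71 ± 0.10, adjusted p = 2.56e-05). Of the chemokine genes 5 rose within the 4 low-spread arrays and 6 without them.

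NF-kB is known to act at promoters of such genes, so these were read. RefSeq promoter sequences of build GRCm38.p6 were found for 19 of the 24 sensing genes and 19 of the 26 chemokine genes. In the 250 bases before the start, the NF-kB consensus (searched on both strands) was found in 7 of the 19 sensing genes (36.8%). It was found in 5 of the 19 chemokine genes (26.3%) and in 5.4% of all 11452 tested genes with a promoter. A gene was counted if any of its promoters held the consensus. The lists were made of such genes, and the matches include Nfkbie and Ccrl2, which did not pass. These shares therefore say nothing about the rise at day 1. A match describes the letters in this window and is no evidence of binding. The promoters shown are those of genes described here that rose and hold the consensus, leaving out Nfkb2, for which several promoters are listed, each as a window of 130 bases in gene orientation with matches in capitals.
Nfkbia (chr12:55492648-55492777, minus strand): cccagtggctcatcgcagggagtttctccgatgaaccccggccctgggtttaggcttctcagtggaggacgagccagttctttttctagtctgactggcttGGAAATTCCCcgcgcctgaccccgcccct
Tnfaip3 (chr10:19015466-19015595, minus strand): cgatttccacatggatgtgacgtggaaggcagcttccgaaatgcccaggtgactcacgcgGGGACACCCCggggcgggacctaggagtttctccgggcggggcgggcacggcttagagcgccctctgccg
Tlr2 (chr3:83841712-83841841, minus strand): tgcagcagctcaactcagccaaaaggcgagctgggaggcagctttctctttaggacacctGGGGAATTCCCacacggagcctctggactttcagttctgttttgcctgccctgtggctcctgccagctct
Cxcl1 (chr5:90891114-90891243, plus strand): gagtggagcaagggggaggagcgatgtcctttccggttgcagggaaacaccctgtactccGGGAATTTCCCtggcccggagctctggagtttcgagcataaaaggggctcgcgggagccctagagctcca
Cxcl2 (chr5:90903742-90903871, plus strand): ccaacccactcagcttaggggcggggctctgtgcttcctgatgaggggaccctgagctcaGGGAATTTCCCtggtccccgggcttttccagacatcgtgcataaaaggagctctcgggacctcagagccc
Cxcl10 (chr5:92348979-92349108, minus strand): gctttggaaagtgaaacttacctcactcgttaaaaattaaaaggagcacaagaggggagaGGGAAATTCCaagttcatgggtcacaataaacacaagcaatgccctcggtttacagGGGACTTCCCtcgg

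Of these 6 genes, Cxcl2, a further neutrophil attractant, was 5.80 to 7.25 in BDL livers, against 5.39 to 5.73 in sham livers (log2 fold change 0.96 ± 0.23, adjusted p = 0.00462). Longer capital runs are overlapping matches, and Cxcl10 holds 2 separate ones. The window of Tnfaip3 shows 1 of its 2 matches, and the other lies nearer the start. Of all genes called higher that had a promoter, 8.02% held the consensus.

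Acute phase and interleukin 6 signalling genes rose in 11 of 30 cases (6 within the 4 low-spread arrays and 7 without them), with none lower (median 0.37). Steap4, a metalloreductase, was 11.70 to 12.34 in BDL livers, against 9.54 to 10.32 in sham livers (log2 fold change 2.13 ± 0.21, adjusted p = 3.84e-08), and Osmr, the oncostatin M receptor, rose (log2 fold change 1.88 ± 0.30, adjusted p = 8.71e-05). Il1rn, the interleukin 1 receptor antagonist, rose without overlap (log2 fold change 1.82 ± 0.24, adjusted p = 5.39e-06), as did Il1r1, the interleukin 1 receptor itself (log2 fold change 1.62 ± 0.35, adjusted p = 0.00217). Saa3, an acute phase serum amyloid, was 11.52, 11.20, 10.37, 11.28 and 11.88 in BDL livers, against 8.94, 8.30 and 10.68 in sham livers (log2 fold change 1.94 ± 0.41, adjusted p = 0.00189), and sham replicate 3 overlapped with the BDL livers. Lcn2, an iron-scavenging protein of the acute phase, was 13.54, 13.20, 13.31, 13.46 and 13.58 in BDL livers, against 11.95, 12.13 and 12.48 in sham livers. Its groups did not overlap, and it narrowly missed the threshold (log2 fold change 1.23 ± 0.43, adjusted p = 0.0542).

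Other products of the acute phase were high in both groups. Hamp, the iron hormone hepcidin, was 13.71, 13.73, 13.66, 13.74 and 13.62 in BDL livers, against 13.58, 13.24 and 13.61 in sham livers, with no overlap and no call (log2 fold change 0.21 ± 0.09, adjusted p = 0.141). Mt1, metallothionein 1, was 12.01, 11.80, 12.02, 11.98 and 11.92 in BDL livers, against 11.73, 10.90 and 11.52 in sham livers, again with no overlap and no call (log2 fold change 0.57 ± 0.45, adjusted p = 0.463). Orm3, an orosomucoid, rose (log2 fold change 1.72 ± 0.56, adjusted p = 0.0375; 0.0563 with the block), and its adjusted p was 0.0653 to 0.25 without BDL replicate 2 or 5 or sham replicate 1 or 3. Of 16 genes of iron and zinc handling 4 rose and 1 fell (25% and 6.25%, compared with 8.52% and 4.8% of all genes). None fell without BDL replicate 1, 2, 3 or 4 or sham replicate 2 or 3, and 2 fell with the block. The risers included Hjv, a co-receptor for the signal that induces hepcidin (log2 fold change 0.61 ± 0.11, adjusted p = 0.000406), and Smad7, a feedback inhibitor of that signal (log2 fold change 0.95 ± 0.22, adjusted p = 0.00321).

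Among 23 cytokine, receptor and adhesion genes 6 rose (3 without sham replicate 3, 11 without BDL replicate 3) and 1 fell. None fell without BDL replicate 2 or 3 or sham replicate 1 or 3. The list median was 0.51, and the shares were 26.1% and 4.35%, compared with 8.52% and 4.8% of all genes. Icam1, the adhesion molecule that holds neutrophils, was 8.19, 8.21, 7.69, 8.70 and 8.86 in BDL livers, against 6.32, 7.17 and 6.88 in sham livers (log2 fold change 1.54 ± 0.20, adjusted p = 3.72e-06). Tnfrsf12a, the receptor of TWEAK, rose most (log2 fold change 2.19 ± 0.22, adjusted p = 7.76e-08), and Tnfrsf1a, the main receptor of tumour necrosis factor, rose too (log2 fold change 1.02 ± 0.15, adjusted p = 3.59e-05). Il1b, the cytokine interleukin 1 beta, was 6.36, 5.93, 5.04, 5.99 and 7.09 in BDL livers, against 4.84, 6.06 and 4.59 in sham livers, with overlap and no call (log2 fold change 0.92 ± 0.38, adjusted p = 0.118). It passed without BDL replicate 3 (adjusted p = 0.0322) and without sham replicate 2 (0.0198). Il22ra1, the interleukin 22 receptor of hepatocytes, was among the 20 largest rises (log2 fold change 2.42 ± 0.29, adjusted p = 1.82e-06). Slpi, a secreted inhibitor of neutrophil proteases, was another (log2 fold change 2.27 ± 0.25, adjusted p = 3.95e-07). Interferon-stimulated genes were called in 1 of 17 cases, a share of 5.88%, compared with the 8.52% of all genes that rose. None of these rose without sham replicate 1, and 2 rose without BDL replicate 2 or 3.

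**Figure D3:**
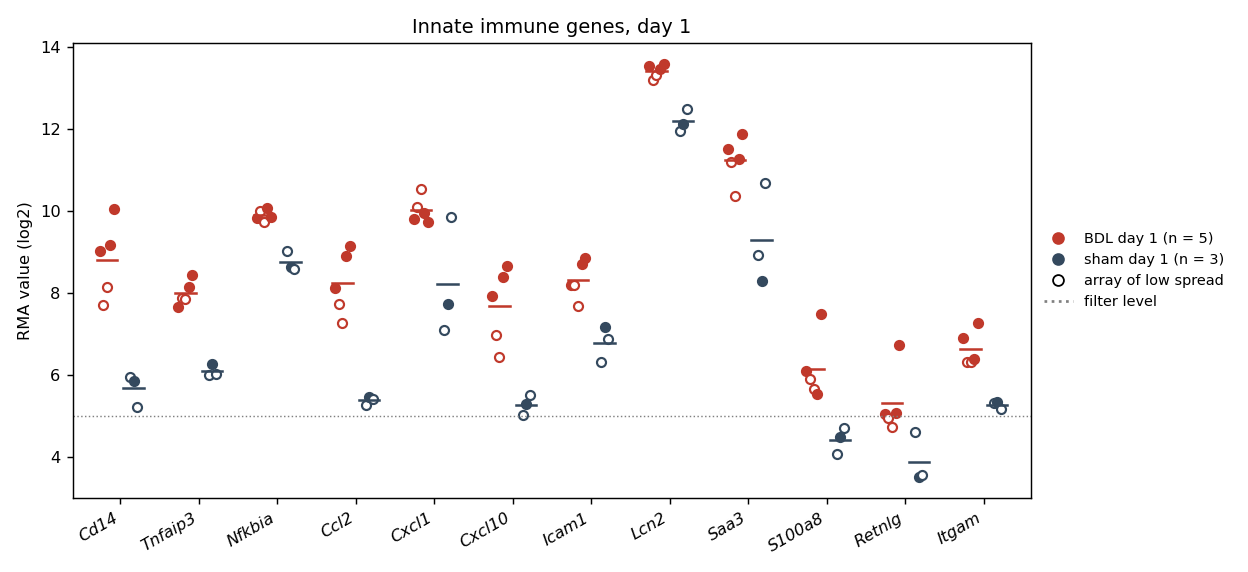
Log2 RMA values of 12 innate immune genes in each BDL (red, left of each pair, n = 5) and sham (dark blue, right, n = 3) liver at day 1; bars are group means, open symbols the 4 arrays of low spread, and the dotted line the filter level of 5. Cd14, Tnfaip3 and Ccl2 separate the groups, sham replicate 3 is high for Cxcl1 and Saa3, and BDL replicate 5 is the highest array for S100a8 and Retnlg.

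Of 12 markers of monocyte-derived macrophages 6 rose (3 within the 4 low-spread arrays and 2 without them) and none fell, and their mean level was 6.14 to 6.97 in BDL livers and 5.38 to 5.77 in sham livers. Chil3, a chitinase-like protein of such cells, rose above a sham mean under 5 (adjusted p = 6.89e-06), and Itgam, the integrin CD11b shared with neutrophils, was 6.31 to 7.27 in BDL livers, against 5.18 to 5.36 in sham livers (log2 fold change 1.36 ± 0.24, adjusted p = 0.00028). Of 18 neutrophil markers listed 13 were tested, and Ly6g, Camp, Fpr1, Clec4e and Trem1 were not. Among the 13 tested, 7 rose and none fell. Genes low in sham livers can pass the filter through ligated livers alone, which favours rises over falls in this list. The mean level of the 13 was 5.23 to 5.96 in BDL livers and 4.75 to 4.94 in sham livers. For 7 of the 13 the mean over all day 1 arrays of both groups was under 5. S100a8, a calcium-binding protein that fills neutrophils, was 6.11, 5.91, 5.66, 5.54 and 7.51 in BDL livers, against 4.08, 4.51 and 4.71 in sham livers (log2 fold change 1.71 ± 0.37, adjusted p = 0.00215). BDL replicate 5 was the highest array for S100a8 and for the neutrophil genes Csf3r (log2 fold change 0.72 ± 0.15, adjusted p = 0.00165), Mmp9 (log2 fold change 0.74 ± 0.23, adjusted p = 0.0314) and Retnlg (log2 fold change 1.42 ± 0.38, adjusted p = 0.0106). All sham values of S100a8 lay under 5. Retnlg was 4.74 to 5.08 in the other BDL livers, so the sizes of both changes depend on the background level.

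Without BDL replicate 5 the neutrophil genes rose in 5 of 13 cases, and without sham replicate 3 in 4. Without BDL replicate 5 the mean level of the list reached at most 5.41 in the 4 remaining BDL livers, still above the highest sham liver. Within the 4 low-spread arrays none of the 13 was called. With 1 array left out, the adjusted p of Mmp9 was 0.056 to 0.0973 without BDL replicate 5 or sham replicate 1, 2 or 3, and it was 0.0614 with the block. The adjusted p of Retnlg was 0.0709 without sham replicate 3. How far leukocyte number accounts for the rise of sensing, chemokine and adhesion genes was not tested. Lymphocyte markers were called in none of 9 cases by limma, with a mean level of 5.07 to 5.27 in BDL livers and 5.35 to 5.44 in sham livers. For 4 of the 9 the mean over all day 1 arrays of both groups was under 5.

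Genes of the p53 response rose in part, first among them Cdkn1a, which encodes the cell cycle inhibitor p21. Cdkn1a was 9.91, 8.71, 8.94, 9.25 and 9.86 in BDL livers, against 5.48, 5.99 and 6.22 in sham livers (log2 fold change 3.44 ± 0.32, adjusted p = 2.36e-08). The lowest ligated liver exceeded the highest sham liver by more than 2 log2 units. Of 20 genes of the p53 response 8 rose (4 without sham replicate 1 and 5 without sham replicate 3) and none fell (median 0.37). Btg2, an antiproliferative gene (log2 fold change 1.50 ± 0.25, adjusted p = 0.000117), and Ddit4, which restrains mTOR (log2 fold change 1.41 ± 0.37, adjusted p = 0.0103), followed, although the adjusted p of Ddit4 was 0.0503 without sham replicate 1. Mdm2, the ligase that degrades p53, was 8.05, 7.87, 7.66, 8.14 and 8.29 in BDL livers, against 7.35, 7.90 and 6.95 in sham livers. Sham replicate 2 reached the BDL range (log2 fold change 0.60 ± 0.15, adjusted p = 0.00848), and the adjusted p was 0.14 without sham replicate 3.

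Immediate early genes, which cells switch on within minutes of a signal, rose in 12 of 28 cases (7 without sham replicate 1) and fell in none (median 0.49). Sik1, a kinase induced by cAMP, was 11.02, 10.63, 11.02, 11.05 and 10.46 in BDL livers, against 8.04, 8.16 and 8.19 in sham livers (log2 fold change 2.71 ± 0.23, adjusted p = 6.15e-09). Gadd45b, a growth arrest gene that NF-kB also induces (log2 fold change 1.90 ± 0.19, adjusted p = 7.76e-08), Ier3 (log2 fold change 1.78 ± 0.26, adjusted p = 3.1e-05) and Klf6 (log2 fold change 1.73 ± 0.18, adjusted p = 7.76e-08) rose without overlap. Atf3, a stress-induced transcription factor, was 7.61, 7.05, 8.35, 8.27 and 8.31 in BDL livers, against 6.56, 6.51 and 6.57 in sham livers (log2 fold change 1.37 ± 0.24, adjusted p = 0.000218). Myc was 7.70, 7.45, 8.31, 8.07 and 7.90 in BDL livers, against 6.61, 6.97 and 6.99 in sham livers, with no overlap and no call (log2 fold change 1.03 ± 0.37, adjusted p = 0.0643). It passed without BDL replicate 2 (adjusted p = 0.0484) and with the day 1 arrays alone (0.0119). In the fit of the day 1 arrays alone 30 named genes that were called did not pass.

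The unfolded protein and integrated stress responses gave 9 of 31 genes higher (4 without sham replicate 1) and none lower, with a median of 0.42. Hspa5, which encodes the chaperone BiP, was 9.68, 9.44, 9.76, 9.98 and 10.03 in BDL livers, against 9.04, 9.59 and 9.06 in sham livers (log2 fold change 0.54 ± 0.17, adjusted p = 0.0291). Sham replicate 2 lay within the BDL range, and the call was lost with the block (adjusted p = 0.0591) and with 1 array left out (0.0718 to 0.161 without BDL replicate 4 or 5 or sham replicate 1 or 3). Dnajb9, a co-chaperone, rose more (log2 fold change 1.19 ± 0.26, adjusted p = 0.00246), likewise with sham replicate 2 in the BDL range. Creld2, a chaperone-like protein of the endoplasmic reticulum, rose (log2 fold change 1.02 ± 0.26, adjusted p = 0.00889), but with an adjusted p of 0.125 without sham replicate 1. Counts were 5 within the 4 low-spread arrays and 2 in the other 4 arrays of day 1.

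The promoters of this list were searched on both strands for the ER stress response element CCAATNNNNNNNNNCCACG, through which the sensors of unfolded protein are known to act. It was found in 7 of the 27 genes with a promoter, compared with 0.157% of all 11452 tested genes with a promoter and 0.301% of those called higher. Of the 7 genes 3 were called higher (Hspa5, Creld2 and Dnajc3), while Calr, Hsp90b1, Pdia6 and Syvn1 did not pass. The list was made of genes of this response, so its share says nothing about the rise at day 1. The promoters of Hspa5 and Creld2, described above, are shown in the same way, with the match in capitals.
Hspa5 (chr2:34771960-34772089, plus strand): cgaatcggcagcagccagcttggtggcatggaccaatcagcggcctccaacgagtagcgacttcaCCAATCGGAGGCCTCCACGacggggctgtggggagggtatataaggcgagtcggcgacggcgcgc
Creld2 (chr15:88819460-88819589, plus strand): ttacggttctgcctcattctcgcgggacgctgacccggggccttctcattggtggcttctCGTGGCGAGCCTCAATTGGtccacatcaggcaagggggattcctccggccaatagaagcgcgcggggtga

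The cytoskeleton list rose in 12 of 23 cases with none lower (median 0.65). Tubb2a, a beta-tubulin, was 9.65, 9.45, 9.42, 9.89 and 9.78 in BDL livers, against 6.64, 7.74 and 8.27 in sham livers (log2 fold change 2.09 ± 0.38, adjusted p = 0.000364). Krt8 (log2 fold change 1.52 ± 0.18, adjusted p = 8.4e-07) and Krt18 (log2 fold change 1.46 ± 0.15, adjusted p = 7.76e-08), the keratin pair of hepatocytes, rose by similar amounts. Anxa2 (log2 fold change 2.10 ± 0.28, adjusted p = 5.68e-06) and Anxa5 (log2 fold change 1.55 ± 0.20, adjusted p = 5.01e-06), which bind membranes under calcium control, rose as well, and so did Actg1, a cytoplasmic actin (log2 fold change 1.97 ± 0.16, adjusted p = 2.03e-09). None of these 6 genes overlapped between the groups.

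Cyclin D1 rose, while the other tested cell cycle genes did not pass. Ccnd1, which encodes cyclin D1, was 9.23, 8.47, 8.57, 9.62 and 9.33 in BDL livers, against 7.47, 7.74 and 6.66 in sham livers (log2 fold change 1.75 ± 0.30, adjusted p = 0.00019). It was the only member called among 26 cell cycle genes (3.85%, compared with the 8.52% of all genes that rose), whose median was -0.15. Without BDL replicate 3 a further member was called lower. Mki67, the proliferation marker, was 5.93, 5.78, 5.12, 5.23 and 5.56 in BDL livers, against 6.05, 5.67 and 6.05 in sham livers, and did not pass (log2 fold change -0.40 ± 0.25, adjusted p = 0.328). Of 16 growth factor and stress hormone genes 5 rose and 1 fell (31.25% and 6.25%, compared with 8.52% and 4.8% of all genes). Nrg1 (log2 fold change 1.56 ± 0.22, adjusted p = 1.61e-05) and Tgfa (log2 fold change 1.18 ± 0.22, adjusted p = 0.00053), ligands of the EGF receptor family, rose, while Egfr, the receptor itself, fell (log2 fold change -0.85 ± 0.20, adjusted p = 0.00519, but 0.0537 without sham replicate 2). Mybl1, a transcription factor of male germ cells, rose above a sham mean under 5 (adjusted p = 5.33e-06).

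**Figure D4:**
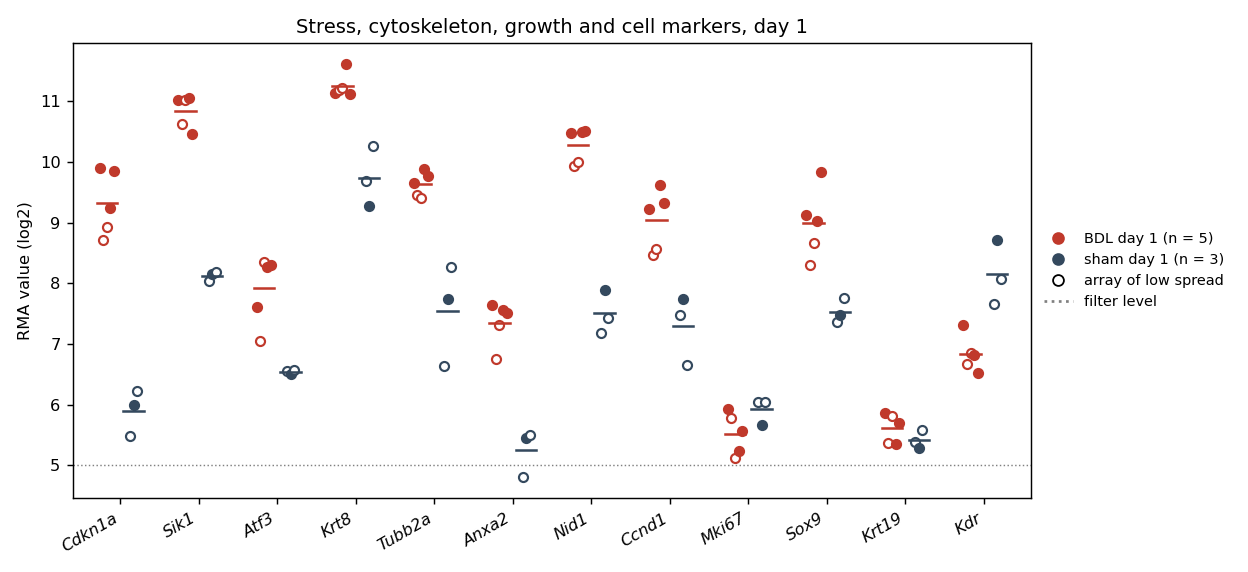
Log2 RMA values of 12 genes of stress, cytoskeleton, matrix, growth and cell types in each BDL (red, left of each pair, n = 5) and sham (dark blue, right, n = 3) liver at day 1; bars are group means, open symbols the 4 arrays of low spread, and the dotted line the filter level of 5. Cdkn1a, Sik1, Nid1 and Sox9 separate the groups, Kdr is lower in every BDL liver, and Mki67 and Krt19 overlap.

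Matrix genes rose in 8 of 25 cases (5 without BDL replicate 1 or 5 or sham replicate 3) with none lower (1 without BDL replicate 1 or sham replicate 2; median 0.28), while the main scar collagen did not pass. Nid1, nidogen 1 of basement membranes, was 10.47, 9.93, 10.01, 10.50 and 10.52 in BDL livers, against 7.19, 7.90 and 7.43 in sham livers (log2 fold change 2.78 ± 0.22, adjusted p = 2.03e-09). Thbs1, which activates TGF-beta (log2 fold change 1.36 ± 0.26, adjusted p = 0.000543), and Mmp14, a membrane-bound protease (log2 fold change 0.98 ± 0.19, adjusted p = 0.000574), rose. Col1a1, the main chain of scar collagen, was 7.81, 6.21, 6.73, 6.55 and 6.27 in BDL livers, against 6.48, 6.39 and 5.80 in sham livers, with BDL replicate 1 high and the rest overlapping (log2 fold change 0.49 ± 0.55, adjusted p = 0.633). Timp1, an inhibitor of matrix proteases, was low, at 5.53, 4.94, 5.23, 4.83 and 5.26 in BDL livers, against 4.89, 4.002 and 4.12 in sham livers (log2 fold change 0.82 ± 0.27, adjusted p = 0.0424), and the adjusted p was 0.0621 to 0.174 without BDL replicate 1, 3 or 5 or sham replicate 2 or 3. Of 18 stellate cell and myofibroblast markers 1 was lower (5.56%, compared with 4.8% of all genes) and none higher. None was lower without sham replicate 2, and 3 were lower with the block. The mean level of the list was 6.39 to 6.91 in BDL livers and 6.43 to 6.86 in sham livers.

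Bile duct markers rose in 2 of 12 cases (16.7%, compared with 8.52% of all genes). Sox9, a transcription factor of duct cells that injured hepatocytes also express, was 9.12, 8.30, 8.67, 9.03 and 9.84 in BDL livers, against 7.36, 7.48 and 7.76 in sham livers (log2 fold change 1.46 ± 0.27, adjusted p = 0.00042). Krt19, the duct keratin, was 5.87, 5.37, 5.81, 5.35 and 5.70 in BDL livers, against 5.38, 5.30 and 5.58 in sham livers, and did not pass (log2 fold change 0.20 ± 0.14, adjusted p = 0.388). The mean level of the 12 markers was 5.45 to 5.69 in BDL livers and 5.05 to 5.49 in sham livers. For 5 of them the mean over all day 1 arrays of both groups was under 5. Cd24a, the other riser, is uncertain, since another of its rows changed in the opposite direction (0.70, adjusted p = 0.0232, and 0.0629 to 0.114 without BDL replicate 1 or sham replicate 1 or 2).

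Sinusoidal endothelial markers fell in 8 of 23 cases and rose in none (median -0.39). Kdr, the receptor of vascular endothelial growth factor, was 7.31, 6.68, 6.86, 6.83 and 6.52 in BDL livers, against 7.66, 8.72 and 8.08 in sham livers (log2 fold change -1.31 ± 0.20, adjusted p = 3.83e-05). Dnase1l3, a secreted nuclease (log2 fold change -1.46 ± 0.27, adjusted p = 0.00051), Ehd3 (log2 fold change -1.42 ± 0.30, adjusted p = 0.00197) and Mrc1, the mannose receptor (log2 fold change -0.97 ± 0.22, adjusted p = 0.00314), fell without overlap. The mean level of the 23 markers was 6.74 to 7.13 in BDL livers and 7.11 to 7.87 in sham livers, highest in sham replicate 2. The number of falls was 10 with the block, 2 within the 4 low-spread arrays and 4 to 9 with 1 array left out, fewest without sham replicate 2.

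Of 11 Kupffer cell markers 1 fell and 1 rose (9.09% each, compared with 4.8% and 8.52% of all genes). With the block 4 fell, and with 1 array left out 4 fell without BDL replicate 5, 2 without sham replicate 3 and none without sham replicate 2. Clec4f, the lectin of resident Kupffer cells, was 8.53, 8.70, 8.36, 8.0002 and 8.59 in BDL livers, against 9.06, 9.50 and 8.90 in sham livers (log2 fold change -0.72 ± 0.18, adjusted p = 0.0078), and its adjusted p was 0.0565 without sham replicate 2. Marco, a scavenger receptor of macrophages, rose and was 9.12 to 10.16 in BDL livers, against 7.08 to 7.88 in sham livers (log2 fold change 1.99 ± 0.29, adjusted p = 3.2e-05). Markers of exocrine pancreas (6 tested), adipocytes (4), mesothelium (6) and red blood cells (2) gave no call by limma, and their mean levels overlapped between the groups. With 1 array left out, 1 pancreas marker was called lower without sham replicate 2, and 1 adipocyte marker was called lower without BDL replicate 2 or sham replicate 2 and 1 higher without sham replicate 3.

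Other large rises belong to no list. Fyb2, a gene of adaptor proteins, was 8.98 to 9.20 in BDL livers, against 6.27 to 6.79 in sham livers (log2 fold change 2.56 ± 0.15, adjusted p = 7.97e-12), and it had the smallest standard error among the 20 largest rises. Cib3, of a family of calcium-binding proteins, was 8.89 to 9.96 in BDL livers, against 6.26 to 7.51 in sham livers (log2 fold change 2.85 ± 0.36, adjusted p = 3.24e-06). Sprr1a, a cornified envelope protein of stressed epithelia, and Mtmr11 rose above sham means under 5 (adjusted p = 4.99e-05 and 2.38e-08).

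The effect of ligation at day 1 was set against that at day 7, a comparison of separate animals (5 BDL and 4 sham livers at day 7). The effects differed for 637 of 14699 genes (4.33%), with the day 1 effect higher for 126 (0.857%) and lower for 511 (3.48%). With the low-spread arrays as a block the count was 1076, and without those arrays it was 287. Of the genes called at day 1, 189 had an effect that differed from day 7. Cyp7a1 had a log2 fold change of -5.65 at day 1 and 0.87 at day 7 (difference -6.52 ± 1.17, adjusted p = 0.00193). Cyp8b1 had log2 fold changes of -5.07 at day 1 and -1.62 at day 7 (difference -3.44 ± 0.57, adjusted p = 0.00101). Serpina6 (-3.93 and -0.92; difference -3.01 ± 0.82, adjusted p = 0.0323) and Car3 (-5.49 and -2.03; difference -3.46 ± 0.97, adjusted p = 0.0372) likewise had larger falls at day 1, but these differences did not pass in several fits with 1 array left out. The adjusted p was 0.0543 to 0.0648 without BDL replicate 3 or 4 or sham replicate 1 or 2 for Serpina6 and 0.0509 to 0.0744 without BDL replicate 2, 3 or 4 or sham replicate 1, 2 or 3 for Car3.

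Some rises were greater at day 1. Abcb1a had log2 fold changes of 2.93 at day 1 and 1.37 at day 7 (difference 1.56 ± 0.33, adjusted p = 0.00704), and Sik1 had 2.71 and 1.07 (difference 1.64 ± 0.32, adjusted p = 0.00318). Fgf21 (1.02 and -0.10, adjusted p = 0.018), Cidec (1.62 and -0.40, adjusted p = 0.0432) and Pmvk (1.48 and -0.07, adjusted p = 0.01) rose at day 1 with effects near or below 0 at day 7. The adjusted p of the difference was 0.0552 without sham replicate 3 for Fgf21 and 0.0517 to 0.0807 without BDL replicate 3, 4 or 5 or sham replicate 1, 2 or 3 for Cidec. The largest differences with a higher day 1 effect were those of genes whose day 7 fold change lay further below 0. Slco1a1 (-2.14 and -5.31), the pseudogene Serpina4-ps1 (-1.06 and -5.14), Mup21 (-1.04 and -4.44) and Elovl3 (-1.23 and -3.68) had adjusted p = 0.00094, 0.0166, 0.000604 and 0.0256 for the difference. With 1 array left out it was 0.0725 without sham replicate 1 for Serpina4-ps1 and 0.0832 without sham replicate 1 and 0.0523 without sham replicate 3 for Elovl3. At day 1 itself Mup21 was at the threshold (adjusted p = 0.0496; 0.105 with the block; 0.0709 to 0.24 without BDL replicate 1, 4 or 5 or sham replicate 1 or 3), and Serpina4-ps1 and Elovl3 did not pass.

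Other effects were lower at day 1 than at day 7. Mki67 had -0.40 at day 1 and 1.61 at day 7 (difference -2.01 ± 0.34, adjusted p = 0.00115), and 9 of the 26 cell cycle genes differed between the days, with list medians of -0.15 at day 1 and 0.77 at day 7. For Kupffer cell markers 9 of 11 differed, with medians of -0.34 and 1.11. Sprr1a (2.95 and 5.34, adjusted p = 0.0233), Atp6v0d2, a proton pump subunit of osteoclasts and phagocytes (-0.39 and 2.30, adjusted p = 0.00231), and Orm2, an orosomucoid (0.25 and 2.63, adjusted p = 0.00237), had lower effects at day 1, with an adjusted p of 0.0547 without sham replicate 1 and 0.055 without sham replicate 3 for Sprr1a. Kdr (-1.31 and -0.34, adjusted p = 0.0348) and Nr1h4 (-1.0002 and -0.37, adjusted p = 0.0364) fell further at day 1, differences that did not pass in some fits with 1 array left out (0.0538 to 0.114 without BDL replicate 2, 4 or 5 or sham replicate 2 or 3 for Kdr, and 0.0577 to 0.109 without BDL replicate 1 or 4 or sham replicate 3 for Nr1h4).

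**Figure D5:**
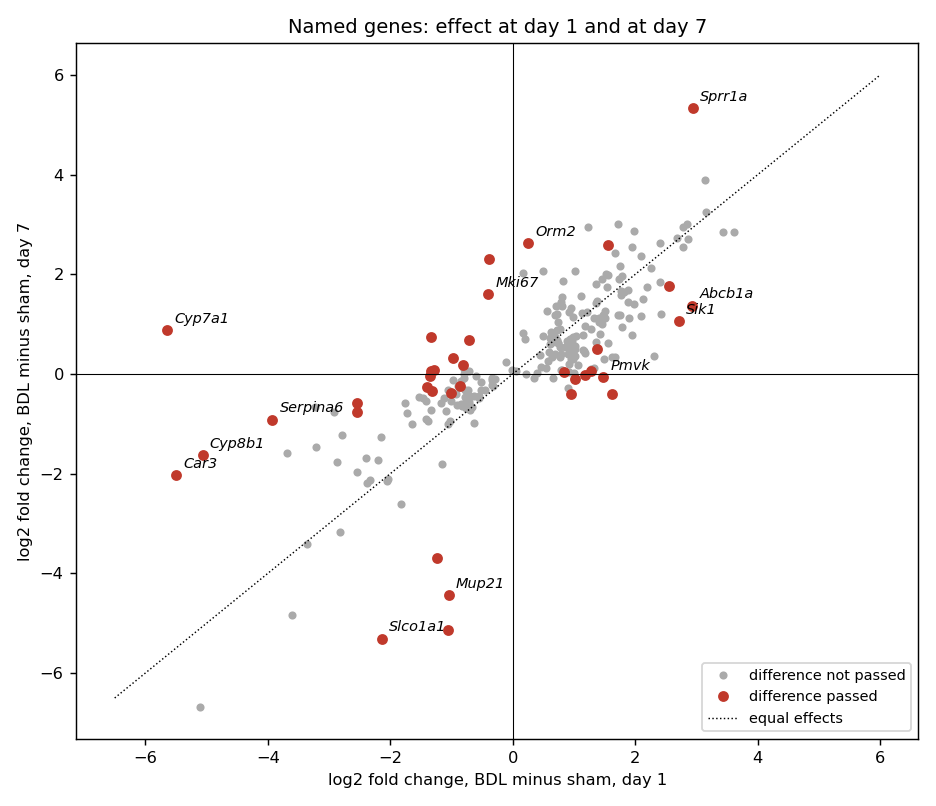
Log2 fold change of BDL over sham at day 1 (horizontal) and at day 7 (vertical) for the 248 genes that the naming rule selects; red points are the 37 whose 2 effects differed past the threshold, and the dotted line marks equal effects. Cyp7a1, Cyp8b1, Car3 and Serpina6 lie far to the left of the line, and Slco1a1 and Mup21 far below it.

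The sham livers of day 1 were themselves compared with the 4 sham livers of day 7, which shows where the sham level at day 1 departs from that a week after surgery. Sham livers of day 1 differed in 604 genes (4.11%), 169 higher (1.15%) and 435 lower (2.96%). The acute phase genes Saa3, Orm2 and Saa2 were among the 5 largest rises. Saa3 was 9.31 in sham livers at day 1 and 6.49 at day 7 (log2 fold change 2.82, adjusted p = 0.0024). Orm2 averaged 12.75 at day 1 and 10.51 at day 7 (adjusted p = 0.0024), and Saa2 averaged 13.44 and 10.53 (adjusted p = 0.0128). These sham livers thus had high levels of Orm2 and Saa2, beside a ligation effect at day 1 of 0.25 for Orm2 and 0.17 for Saa2. Both comparisons share the day 1 sham arrays. With the low-spread arrays as a block the adjusted p was 0.0824 for Saa3, 0.0488 for Orm2 and 0.181 for Saa2.

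Most of the other named genes of this comparison also differed between the low-spread arrays and the rest. The small nucleolar RNA genes Snora74a (2.92, adjusted p = 0.0265) and Snora31 (2.70, adjusted p = 0.0215) were higher at day 1, and Ywhaq, Tma7, Abcd2, Elovl6 and Pklr were the 5 largest falls, at -1.81, -1.91, -1.95, -1.43 and -1.41. The term for the low-spread arrays passed for each of these 7 genes except Abcd2. With it as a block 1 gene, Orm2, was called, and without those arrays 1 gene. Within them 3548 genes were called, and with 1 sham array left out the count was 12 without replicate 1, 2 without replicate 3 and 3040 without replicate 2. Tma7 was called between BDL and sham at day 1 (log2 fold change 1.07 ± 0.34, adjusted p = 0.0335), with an adjusted p of 0.0829 to 0.283 without BDL replicate 1, 4 or 5 or sham replicate 1 or 3. Gdf15 was not analysed here.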

How the data were processed

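Liver RNA of 29 mice was measured on 1-colour arrays, 1 array per animal, in 7 groups of treatment and day. The deposited values are log2 expression values from RMA with oligo 1.52.0, per the submitters' processing notes. The labels' protocol names another Affymetrix mouse array than the Mouse Gene 2.0 ST, to whose platform annotation the identifiers of the rows belong and which was used. The labels name no genome build for the deposited values. Of 41345 rows, 23521 had 1 gene symbol, 1814 had several and 16010 had none and were left out. Symbols were updated through gene IDs of the RefSeq table (23328 rows found). Where a gene had more than 1 row, that with the highest mean was kept. Rows of 1 gene disagreed in direction for Cd24a among the genes named. They also did for Cyp2c55, which the naming rule selects (0.84 in the row used, -0.25 in the other). Other rows gave -1.00 for Keg1 (-2.54 in the row used), 0.04 for Tma7 (1.07) and 0.38 to 2.55 for Actg1 (1.97). The call of Tma7 was lost with the mean of its rows.

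The comparison of 5 BDL with 3 sham livers at day 1 was fitted with limma 3.58.1 in R 4.3.3 on all 7 groups, which share an estimate of spread. In simulated data with 200 changed genes the fit called 29.9% of those changed by 0.5 on the log2 scale and 92.5% of those changed by 1. Of its calls 6.33% were false. The simulated data held no arrays of low spread, so the check does not cover that split of the day 1 arrays. Animal numbers in the labels differ, so p-values measure the spread between animals; replicate numbers follow the sample order. Members and gene lists were chosen with earlier results of these data known. Genes were named by this rule: the 20 largest called rises and falls without overlap, the called members of each list with the largest changes (at most 6 in each direction, here fewer), a fixed set of marker genes whatever their result, and the 5 largest called differences in each direction of the comparisons with day 7. Predicted genes were passed over, and some genes of the fixed set are not reported here. Promoter sequences are RefSeq's (GRCm38.p6). Alternatives tried were other filters, the mean of a gene's rows, cyclic loess scaling, the low-spread arrays as a block, alone or left out, the day 1 arrays alone, and each day 1 array left out.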

Additional observations from a re-analysis of the deposited data

Results flagged for a closer look

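A single BDL liver lay apart from the other 4 for 10 of the 194 genes examined, judged by its gap to the nearest other liver as a share of the group's range. Chance alone sets a liver apart for about 1 in 20 genes. Of these 10 genes 4 were neutrophil markers, and these had BDL replicate 5 as the high liver. S100a8 was 7.51 in BDL replicate 5, against 5.54 to 6.11 in the other BDL livers (gap of 0.71 of the range). Csf3r was 7.33 in BDL replicate 5, against 6.66 to 6.75 in the other BDL livers (gap of 0.871 of the range). Mmp9 was 7.26 in BDL replicate 5, against 5.86 to 6.20 in the other BDL livers (gap of 0.759 of the range). Retnlg was 6.73 in BDL replicate 5, against 4.74 to 5.08 in the other BDL livers (gap of 0.831 of the range). Acaa1b was 7.59 in BDL replicate 4, against 8.03 to 8.19 in the other BDL livers (gap of 0.737 of the range). Ddit4 was 7.81 in BDL replicate 2, against 7.63 to 7.67 in the other BDL livers (gap of 0.789 of the range). Krt8 was 11.62 in BDL replicate 4, against 11.12 to 11.23 in the other BDL livers (gap of 0.782 of the range). Mlxipl was 9.33 in BDL replicate 5, against 9.94 to 10.15 in the other BDL livers (gap of 0.744 of the range). Per1 was 8.79 in BDL replicate 4, against 8.60 to 8.64 in the other BDL livers (gap of 0.796 of the range). Slc10a2 was 8.20 in BDL replicate 2, against 8.74 to 8.93 in the other BDL livers (gap of 0.745 of the range).

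The ligation effect differed between day 1 and day 7 for 32 of the 194 genes named, tested as the difference of the 2 effects by limma, and the values that follow are day 1 minus day 7 on the log2 scale. Genes that fell at day 1 and had a lower effect there were Cyp7a1 (-6.52), Cyp8b1 (-3.44), Car3 (-3.46), Serpina6 (-3.01), Cyp4f14 (-1.95), Cyp2c50 (-1.78), Gulo (-1.37), Fbp1 (-1.31), Slc47a1 (-1.15), F13b (-0.61), Nr1h4 (-0.63), Kdr (-0.97), Mrc1 (-1.29) and Clec4f (-1.40). Lower effects at day 1 of genes that did not fall at day 1 were those of Mki67 (-2.01), Nrg1 (-1.04), Sprr1a (-2.39), Orm2 (-2.38) and Atp6v0d2 (-2.69). Genes that rose at day 1 and had a higher effect there were Abcb1a (1.56), Sik1 (1.64), Cidec (2.02), Pmvk (1.54), F11 (1.35), Dnajb9 (1.21), Fgf21 (1.12), Abcb4 (0.87) and Fyb2 (0.79). Genes with a negative fold change at day 1 and a lower one at day 7 were Serpina4-ps1 (4.08), Mup21 (3.40), Slco1a1 (3.17) and Elovl3 (2.45). Some of these differences did not pass with 1 day 1 array left out. The adjusted p was then 0.0504 to 0.101 for Cyp4f14 without BDL replicate 2, 3 or 4 or sham replicate 2 or 3, 0.0553 without sham replicate 2 for Cyp2c50, 0.0573 to 0.0844 for Slc47a1 without BDL replicate 3 or 4 or sham replicate 1 and 0.0567 to 0.07 for F13b without BDL replicate 3 or 4 or sham replicate 1, 2 or 3. It was 0.0635 to 0.2 for Abcb4 without BDL replicate 2, 3, 4 or 5 or sham replicate 1 or 3, 0.0574 to 0.174 for Dnajb9 without BDL replicate 1, 4 or 5 or sham replicate 1 or 3 and 0.081 to 0.0996 for Nrg1 without BDL replicate 2 or 3 or sham replicate 1 or 2. The values for Car3, Serpina6, Nr1h4, Kdr, Sprr1a, Cidec, Fgf21, Serpina4-ps1 and Elovl3, which also did not pass in such fits, stand with those genes in the results.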

How the results depend on the processing

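No paired analysis was possible because the labels give the groups no shared replicate numbers. The count of genes changed at day 1, 1958 in the fit reported, was 1290 with the 4 low-spread arrays alone, 597 without them, 704 with the day 1 arrays alone and 1268 to 2750 with 1 array left out. It was 2184 with the block, 1717 without a filter, 2084 with a filter at log2 6, 1912 with the mean of a gene's rows and 2099 with loess scaling, where 52.6% were higher. The count of effects that differed from day 7 (637) was 1076 with the block, 287 without the low-spread arrays and 472 to 739 with 1 array left out. The count of genes that differed between sham livers of day 1 and day 7 (604) was 1 with the block, 1 without the low-spread arrays, 3548 with those arrays alone and 2 to 3040 with 1 array left out. The fits without the low-spread arrays keep 1 sham liver of day 1, whose spread is taken from the other groups, and those of the low-spread arrays alone keep 2 of each group. The cause of these shifts was not tested. Of 194 genes named, 166 were called, 161 of these passed with the block and 83 passed under all 16 alternatives. Of the called genes 64 did not pass without the low-spread arrays and 42 with those arrays alone. With the day 1 arrays alone 30 of the called genes did not pass, among them Cxcl1, Cxcl2, Dnajb9, Mrc1, C8b, Gys2, Hpd, Scp2, Ebp and Mdm2. Lcn2, Myc and Nr0b2, not called in the fit reported, passed there. Log2 fold changes turned sign for 9 genes, none of them called. Without the low-spread arrays they were -0.027 for Abcc4, -0.026 for Alb, 0.854 for Atp6v0d2, 0.156 for Snora31, 0.559 for Snora74a and -0.026 for Ywhaq. With those arrays alone they were -0.0003 for Orm2, 0.021 for Serpina4-ps1 and 0.045 for Pck1. For Pck1 they ranged between -0.090 and 0.020 with 1 array left out. The number of sham arrays limits the precision, and genes near a log2 value of 5 are limited by background.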
